A study of Mus musculus with 6 samples.

Results

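The Rhox genes are a family of homeobox genes that lie side by side on the mouse X chromosome. They were taken here as every gene row whose symbol is Rhox followed by a digit, which gave 30 of the 24043 gene rows in the deposited table. Of these, 8 are copies of Rhox2 (Rhox2a to Rhox2h), 6 are copies of Rhox3, 7 are copies of Rhox4 and 9 carry a number of their own (Rhox1, Rhox6 to Rhox13), called single-copy below. Rhox5, which founded the family, was not analysed here. RNA-seq was done on mouse embryonic stem (ES) cells grown with LIF and inhibitors of MEK (PD184352) and GSK3 (CHIR99021), and both groups shared these conditions. The wild-type group held 3 libraries, and the other group held 3 libraries whose genotype label says that the cells lack every G1 cyclin (called Q-KO). Neither the alleles, the way the deletions were made, nor the number of cell lines behind a group was given in the labels. The family was chosen by the difference of its members' FPKM values between these 2 groups, so those values are given as a description and support nothing by a test.

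Homeobox genes encode transcription factors that bind DNA through a homeodomain, a fold of helices of which the third lies in the major groove. The Rhox genes are best known from testis, epididymis, ovary and placenta, and they are largely silent in most other tissues, where DNA methylation is known to help keep them off. In the early mouse embryo some of them mark the extraembryonic lineages and the germ line. Their copies arose by repeated duplication of a stretch holding 1 Rhox2, 1 Rhox3 and 1 Rhox4 gene, so neighbouring copies are close to identical.

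That similarity can be read in the part of each gene that encodes the recognition helix. The stretches below show what separates the members whose levels are described next and what does not. They are 48 bases of coding sequence from GENCODE M21 transcripts, and the capitals mark the 6 codons that encode tryptophan, phenylalanine, any 2 residues, lysine or arginine, and arginine.

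Rhox1: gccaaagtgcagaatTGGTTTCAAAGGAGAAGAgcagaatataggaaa
Rhox2a: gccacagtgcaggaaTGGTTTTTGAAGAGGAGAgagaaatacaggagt
Rhox2e: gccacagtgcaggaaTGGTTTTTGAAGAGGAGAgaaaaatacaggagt
Rhox3a: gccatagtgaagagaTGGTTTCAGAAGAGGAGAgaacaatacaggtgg
Rhox4a: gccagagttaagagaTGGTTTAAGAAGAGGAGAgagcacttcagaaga
Rhox4f: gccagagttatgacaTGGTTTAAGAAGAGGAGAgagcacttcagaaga
Rhox6: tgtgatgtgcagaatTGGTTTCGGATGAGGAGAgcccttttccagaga
Rhox9: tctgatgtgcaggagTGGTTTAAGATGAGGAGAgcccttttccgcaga
Rhox10: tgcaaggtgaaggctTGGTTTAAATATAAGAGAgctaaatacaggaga
Rhox13: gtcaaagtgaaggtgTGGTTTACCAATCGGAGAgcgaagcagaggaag

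The 30 genes held 17 distinct sequences in this stretch. The 8 Rhox2 copies held 2, the 6 Rhox3 copies 2 and the 7 Rhox4 copies 4, whereas each of the 9 single-copy genes had its own. Rhox6 and Rhox9 were identical at 41 of 48 bases (85.4%). Other pairs with single-copy genes were closer or further apart, such as Rhox7 with Rhox4a (83.3%) and Rhox1 with Rhox8 (77.1%). Rhox1 and Rhox13 were at 62.5%, and Rhox6 and Rhox11 at 45.8%. Over whole transcripts, the percentage of 50-base windows that also occur in another Rhox gene was 44.7% to 100.0% among the Rhox2 copies (median 69.6%), 60.5% to 96.7% among the Rhox3 copies (median 72.3%) and 71.1% to 98.3% among the Rhox4 copies (median 88.7%). The highest values of the Rhox3 and Rhox4 copies rest on genes that were not analysed here. Rhox3a shared 94.1% of its windows with Rhox3a2, and Rhox4a shared 95.1% with Rhox4a2. Rhox1, Rhox8, Rhox10, Rhox11, Rhox12 and Rhox13 shared none. Rhox6 shared 16.5% and Rhox9 19.1% of their windows, all with each other, and Rhox7 shared 58.8%, mostly with a copy named Rhox7b that was not analysed here. FPKM, the number of fragments of a gene scaled to its length and to the size of the library, was estimated per gene by the authors, and how fragments were divided between such copies is not given in the sources used here. Values of single Rhox2, Rhox3, Rhox4 and Rhox7 genes are therefore uncertain, those of Rhox6 and Rhox9 are so in smaller part, and the copies are not independent of each other.

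The libraries were checked before the members were read. Pluripotency genes were abundant in all 6, with Pou5f1 at 589 to 797 FPKM and Nanog at 392 to 597 FPKM, and none of the 8 listed passed the test between groups (0 also at an unadjusted p under 0.05). Of the G1 cyclin genes, Ccnd1 was at 21.1 to 40.6 FPKM in wild-type and 7.73 to 9.74 in Q-KO libraries, Ccnd3 at 53.4 to 141 against 8.29 to 13.2, and Ccne2 at 6.19 to 7.94 against 2.82 to 3.12. Ccnd2 was under 1 FPKM in each library, and Ccne1 was higher in the Q-KO libraries (65.3 to 87.3 FPKM) than in wild-type (37.5 to 55.9 FPKM). A gene-level value cannot tell whether the deleted part is missing, so the transcript levels do not check the label, and "Q-KO" below means the libraries labelled so. Y-linked transcripts (Kdm5d, Eif2s3y, Ddx3y, Uty, Zfy1 and Zfy2) were listed at 0 in wild-type replicates 1 and 2 and summed to 44.0 to 102 FPKM in the other 4 libraries, so 2 of the wild-type libraries differed from the rest in these transcripts. Wild-type replicate 3 also correlated least with the others (r across genes 0.924 to 0.957). Col1a1, a fibroblast collagen, was at 1.86 FPKM in Q-KO replicate 1 and at most 0.168 in the rest.

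The Rhox family as a whole was low in wild-type ES cells and several-fold higher in the Q-KO libraries. Its summed level was 12.2, 28.3 and 21.6 FPKM in wild-type replicates 1 to 3 and 121, 151 and 212 FPKM in Q-KO replicates 1 to 3. Each Q-KO library lay above each wild-type library, and the lowest Q-KO sum was 4.29 times the highest wild-type sum. The means were 20.7 ± 8.08 and 161 ± 46.4 FPKM (SD, n = 3 each), a ratio of 7.79. In these bulk libraries, more cells with Rhox transcripts and more transcripts per cell cannot be told apart. Against wild-type replicate 3 alone, the only wild-type library with Y-linked transcripts, the log2 ratio of the sums was 2.90, compared with 2.96 against all 3. The family made up 0.00218% to 0.00503% of all FPKM in wild-type and 0.0231% to 0.0331% in Q-KO libraries. The number of members at or above 1 FPKM was 2, 9 and 6 in the wild-type libraries and 21 in each Q-KO library.

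All 3 Q-KO values lay above all 3 wild-type values for 26 of the 30 members. The same held for 18.2% of the 19581 genes above 0 in at least 1 library. The other 4 were Rhox3e, Rhox8, Rhox11 and Rhox12, and none of the 30 was lower in all Q-KO libraries. The genome-wide fit took only genes whose mean over the 6 libraries reached 1 FPKM, and 20 members did so. Of these 20, 14 had a wild-type mean under 1 FPKM and so entered through their Q-KO values. With limma on log2(FPKM + 1) and Benjamini-Hochberg adjustment over all 11573 genes, 20 of the 20 were past 0.05 and higher in Q-KO, against 3.04% of all genes tested. Nothing is read from that count, because the same contrast chose the family. Their differences, Q-KO minus wild-type on the log2(FPKM + 1) scale, ran from 1.12 to 3.71 with a median of 1.77, where the median of all genes tested was 0.07. This scale understates differences of genes near 0. Just outside the limit lay Rhox10 with a mean of 0.868 FPKM and just inside lay Rhox4f with 1.07 FPKM.

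**Figure D1:**
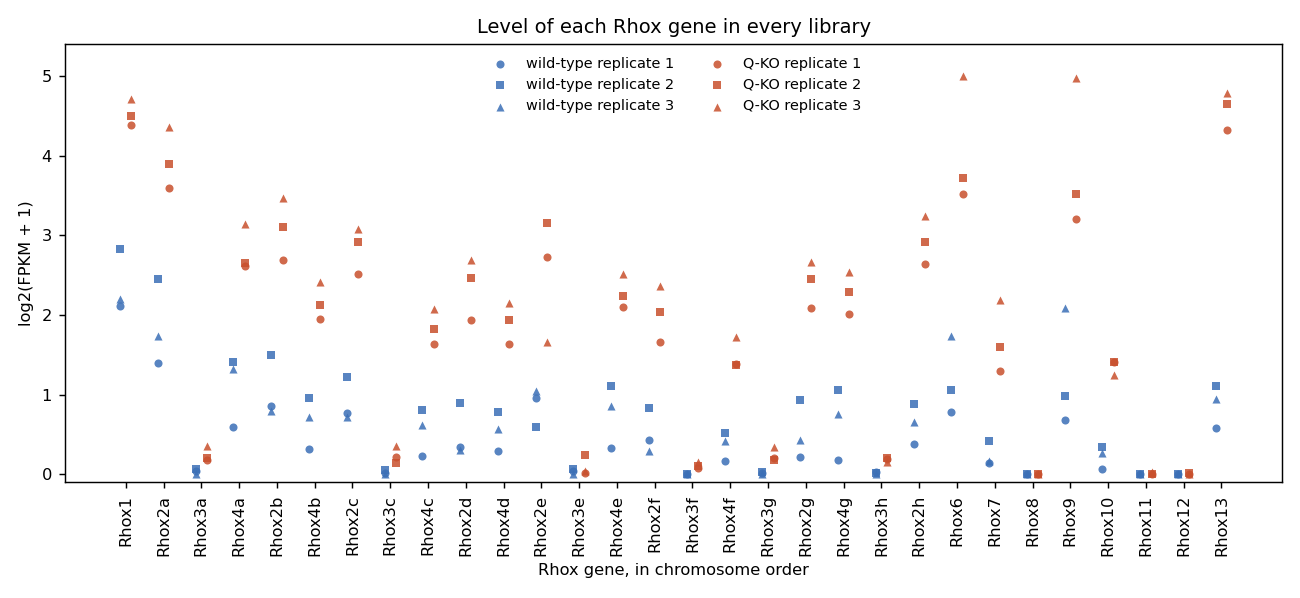
Level of each of the 30 Rhox genes in each library as log2(FPKM + 1), with genes in chromosome order along the horizontal axis. Points are single libraries, blue for wild-type and orange for Q-KO, with circles, squares and triangles for replicates 1, 2 and 3. For 26 genes the 3 orange points lie above the 3 blue ones, and the Rhox3 copies with Rhox8, Rhox11 and Rhox12 sit near 0 throughout.

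Among the single-copy genes, Rhox13 at the end of the cluster differed most. It encodes a homeodomain protein known from germ cells of the testis. Its levels were 0.501, 1.15 and 0.922 FPKM in wild-type and 18.9, 24.2 and 26.5 FPKM in Q-KO libraries. The lowest Q-KO value was 16.5 times the highest wild-type value. The ratio of means was 27.1 and the log2 difference 3.71 (SE 0.20). Rhox13 shares no 50-base window with another Rhox gene. FPKM is a level per length, so genes can be ranked, and Rhox13 went from the eighth highest mean in wild-type to the highest in Q-KO.

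Rhox1, at the other end of the cluster, was the member with the highest level in wild-type cells. It is known from the testis, and like Rhox13 it shares no 50-base window with the family. Its levels were 3.32, 6.10 and 3.61 FPKM in wild-type and 19.8, 21.6 and 25.3 FPKM in Q-KO libraries. The groups did not overlap, and the 3 Q-KO values lay close together. The ratio of means, 5.12, was smaller than that of Rhox13, with a log2 difference of 2.15 (SE 0.21). In Q-KO cells Rhox1 (22.2 ± 2.78 FPKM, SD, n = 3) and Rhox13 (23.2 ± 3.91 FPKM) had overlapping ranges.

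Rhox6 and Rhox9, also known as Psx1 and Psx2, are known from placenta and germ cells. Rhox6 was at 0.720, 1.09 and 2.32 FPKM in wild-type and at 10.4, 12.2 and 30.9 FPKM in Q-KO libraries, with a log2 difference of 2.88 (SE 0.41). Rhox9 was at 0.607, 0.983 and 3.24 FPKM in wild-type and at 8.23, 10.4 and 30.5 FPKM in Q-KO libraries, with a log2 difference of 2.65 (SE 0.51). Neither gene's groups overlapped, but replicate 3 stood far above the other 2 libraries in both groups. Their SEs were the highest of the 20 members in the fit. In Q-KO libraries they had the third and the fourth highest means, at 17.8 ± 11.4 and 16.4 ± 12.3 FPKM (SD, n = 3), not separated from Rhox1, Rhox13 or Rhox2a beyond their spread. Without Q-KO replicate 3, the log2 ratio of the summed level of this pair was 2.79 in place of 3.52.

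The remaining single-copy genes were low. Rhox7 was at 0.0989, 0.339 and 0.118 FPKM in wild-type and at 1.46, 2.03 and 3.56 FPKM in Q-KO libraries (log2 difference 1.46, SE 0.26), and its groups did not overlap. Rhox10, known from germ cells of the testis, was at 0.0463, 0.267 and 0.208 FPKM in wild-type and at 1.66, 1.65 and 1.38 FPKM in Q-KO libraries, a ratio of means of 9.01. Its mean was too low for the fit, yet its groups did not overlap. Rhox8, a gene of the somatic cells of the gonads, was listed at 0 in all 6 libraries. Rhox11 and Rhox12 were listed at 0 in 5 libraries each, with 0.0190 FPKM in Q-KO replicate 3 and 0.0147 FPKM in Q-KO replicate 2. Rhox10 lies beside Rhox11 in the cluster, so a member with separate groups and one near 0 were direct neighbours. A listed 0 can be a failed estimate, so it is not a measured absence.

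The Rhox2 copies summed to 5.17, 11.5 and 6.15 FPKM in wild-type and to 40.3, 54.5 and 62.4 FPKM in Q-KO libraries. The groups did not overlap for the sum or for any of the 8 copies. The ratio of mean sums was 6.89, and the ratios of single copies ran from 5.26 for Rhox2a to 11.8 for Rhox2h. Rhox2a, the first copy of the array, was the highest of the 8 in 6 of 6 libraries, at 1.64, 4.47 and 2.34 FPKM in wild-type and 11.1, 13.8 and 19.5 FPKM in Q-KO. Rhox2h, the last copy, was at 0.304, 0.841 and 0.569 FPKM in wild-type and 5.23, 6.56 and 8.45 FPKM in Q-KO (log2 difference 2.29, SE 0.22). The lowest Q-KO value of Rhox2h was 6.22 times its highest wild-type value, against 2.48 times for Rhox2a.

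Rhox2e ran against its relatives. Its levels were 0.943, 0.503 and 1.05 FPKM in wild-type and 5.61, 7.91 and 2.15 FPKM in Q-KO libraries. In both groups the library in which the other 7 Rhox2 copies were highest (wild-type replicate 2, Q-KO replicate 3) was the one where Rhox2e was lowest. Its groups still did not overlap, with a log2 difference of 1.65 (SE 0.36). It is also the Rhox gene whose 50-base windows all (100.0%) occur in another Rhox gene, and its recognition helix stretch above is that of Rhox2b, Rhox2c and Rhox2f. Whether the division of fragments between copies plays a part in its order was not tested.

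The Rhox4 copies summed to 1.67, 6.75 and 5.003 FPKM in wild-type and to 20.1, 23.2 and 30.6 FPKM in Q-KO libraries. The sums did not overlap, and neither did the values of any of the 7 copies. The ratio of mean sums was 5.50, and the copies spanned a narrow range of ratios from 4.96 to 6.12. Rhox4a was the highest copy in 6 of 6 libraries, at 0.504, 1.66 and 1.51 FPKM in wild-type and 5.11, 5.29 and 7.80 FPKM in Q-KO. Rhox4f was the lowest copy in 6 of 6, at 0.126, 0.434 and 0.340 FPKM in wild-type and 1.61, 1.59 and 2.30 FPKM in Q-KO. Ranked by FPKM, the highest and the lowest Rhox4 copy were the same in both groups while the level differed. The second highest was Rhox4e, except in Q-KO replicates 2 and 3, where it was Rhox4g. These ranks carry the uncertainty of single copies given above, and most windows of Rhox4a also occur in Rhox4a2.

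The Rhox3 copies, which lie between the Rhox2 and Rhox4 copies, stayed near 0. Their sum was 0.0974, 0.168 and 0 FPKM in wild-type and 0.655, 0.797 and 1.09 FPKM in Q-KO libraries. The highest value of any copy in any library was 0.282 FPKM, for Rhox3c in Q-KO replicate 3. All 6 copies were listed at 0 in wild-type replicate 3, so no fold is given. For 5 of the 6 the Q-KO values lay above the wild-type values, and Rhox3e overlapped, at 0.0251, 0.0501 and 0 FPKM against 0.0110, 0.179 and 0.0272 FPKM.

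**Figure D2:**
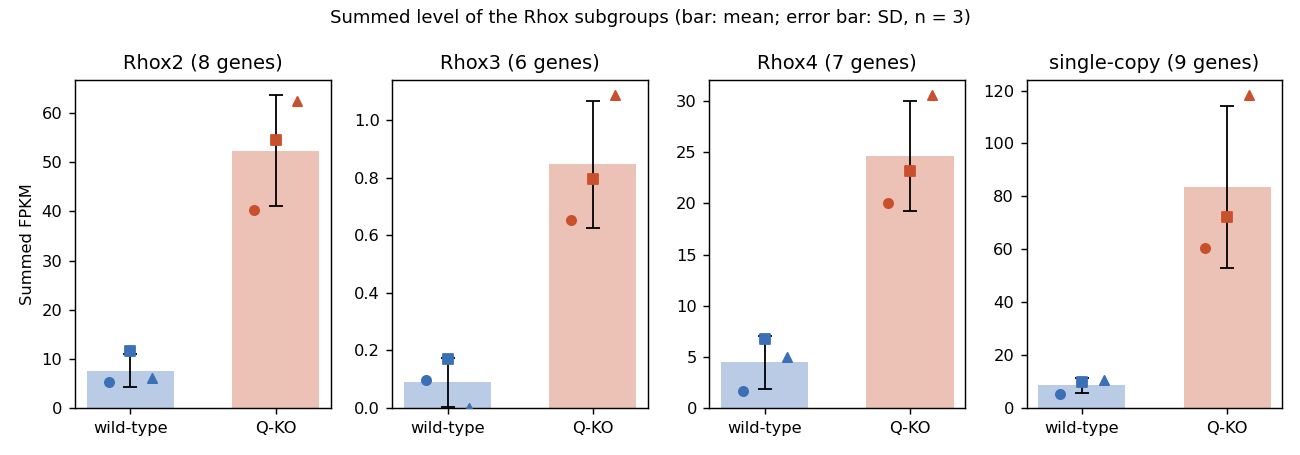
Summed FPKM (vertical axis) of the Rhox2, Rhox3, Rhox4 and single-copy genes in wild-type and Q-KO libraries, each panel with its own scale from 0. Bars are means, error bars are SD (n = 3) and points are single libraries. In each of the 4 panels the Q-KO points lie above the wild-type points, and the Rhox3 panel reaches only 1.09 FPKM.

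The subgroups' shares of the family overlapped between the groups. Single-copy genes made up 42.2 ± 6.69% of the family's FPKM in wild-type and 51.1 ± 4.06% in Q-KO libraries (SD, n = 3), Rhox2 copies 37.1 ± 7.51% and 32.9 ± 3.39%, and Rhox4 copies 20.2 ± 5.71% and 15.4 ± 1.06%. For the single-copy genes the overlap was only the span from 47.9% to 48.3%.

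Within a group most members were highest in the same library, with Rhox6 and Rhox9 as a pair apart. Of the 21 members above 0 in all wild-type libraries, 18 were highest in wild-type replicate 2, and 16 were lowest in wild-type replicate 1. The exceptions to the first count were Rhox2e, Rhox6 and Rhox9, which were highest in wild-type replicate 3. Of the 27 members above 0 in all Q-KO libraries, 23 were highest in Q-KO replicate 3 and 21 were lowest in Q-KO replicate 1. The FPKM sum over all genes had the same order, at 525134, 544292 and 641715 in Q-KO replicates 1 to 3. In wild-type replicates 1 to 3 that sum was 561019, 563622 and 565112. Its part in the order of the members was not tested. Members share a library and many share sequence, so these counts describe 6 libraries and carry no test.

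Rhox6 and Rhox9 together made up 25.8% of the family's FPKM in wild-type replicate 3 and 28.9% in Q-KO replicate 3, against 7.31% to 15.4% in the other 4 libraries. From Q-KO replicate 2 to replicate 3 Rhox6 went up by a factor of 2.54 and Rhox9 by 2.93, where the median factor of the other 19 members above 0 in all libraries was 1.27. From wild-type replicate 2 to replicate 3 the factors were 2.13 and 3.29, against a median of 0.657. The 16 trophoblast markers listed, of which Tpbpa and Prl3d1 were at 0 in all libraries, did not share this order. Of the 13 above 0 in at least 1 wild-type library, 6 were highest and 5 lowest in wild-type replicate 3. Of the 14 above 0 in at least 1 Q-KO library, 4 were highest and 4 lowest in Q-KO replicate 3. Prl2c2, listed at 0 in Q-KO replicates 2 and 3, was counted as lowest in replicate 2 only. The keratins Krt7 and Krt18 with Hand1 and Elf5 were highest in replicate 3 of both groups, whereas Cdx2, Ascl2 and Gcm1 were lowest there. The summed markers were 29.4 to 63.5 FPKM in wild-type and 48.8 to 63.5 FPKM in Q-KO libraries, and in wild-type replicate 3 Krt8 alone made up 30.7 of the 63.5 FPKM, against at most 3.06 FPKM in the other 2 wild-type libraries. These single markers were named after their values were seen. Their part in the levels of Rhox6 and Rhox9 was not tested.

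**Figure D3:**
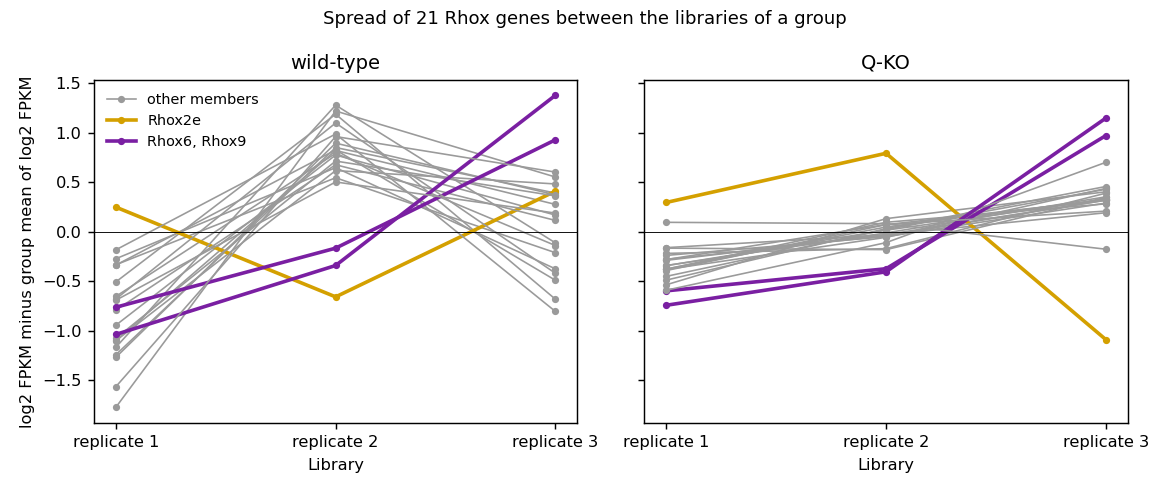
Deviation of each of the 21 Rhox genes above 0 in all libraries from its own group mean, in log2 FPKM (vertical axis), for the 3 wild-type (left) and 3 Q-KO libraries (right). Lines join the libraries of 1 gene only to make it traceable, since replicates have no order. Rhox6 and Rhox9 (purple) are highest in replicate 3 of both groups, Rhox2e (yellow) goes against the other Rhox2 copies, and most other members (grey) peak in wild-type replicate 2 and Q-KO replicate 3.

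The genes beside the cluster were not part of the choice of members and could be tested. In RefSeq order, 1 of the neighbours rose together with the cluster and the rest did not pass. Gm9, the gene next to Rhox1, was at 0.571, 0.897 and 1.22 FPKM in wild-type and at 5.96, 7.47 and 9.77 FPKM in Q-KO libraries. It rose by 2.19 on the log2(FPKM + 1) scale (SE 0.22), with an adjusted p of 0.00398 in the limma fit, and was higher in 3 of 3 Q-KO libraries. Its wild-type mean was 0.897 FPKM, so it entered the fit through its Q-KO values, and with no filter on low values its adjusted p was 0.0255 in limma. Over the other settings in which Gm9 was tested the highest adjusted p was 0.0441, without Q-KO replicate 2. Rnf113a1, a spliceosome-associated gene next to Gm9, was at 5.57, 4.92 and 4.63 FPKM against 4.54, 5.64 and 7.15 FPKM, with overlapping groups. Zbtb33, which encodes the methyl-CpG-binding factor Kaiso and is the first protein-coding gene past Rhox13, was at 3.11, 3.67 and 3.40 FPKM against 3.97, 3.89 and 2.501 FPKM, also with overlapping groups. Neither passed (log2 differences 0.15, SE 0.18, and 0.00, SE 0.19), and both were named for their place after their values were seen.

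Of the 10 annotated genes on each side, 12 were in the table, 8 were tested and 1 was past the threshold. That is 12.5%, where 4.06% of all genes tested passed in either direction. The 1 was Gm9, which entered the fit through its Q-KO values, so this share is not read against the background. With 10 protein-coding genes on each side, an alternative chosen after seeing the data, 13 were tested and Gm9 was again the 1 past the threshold. The tested neighbours other than Gm9 in that set had log2 differences between -0.32 (Lamp2, a lysosomal membrane protein) and 0.41 (Mcts1). Whether Gm9 differed from its neighbours in its change was not tested. The annotation used for gene order is of a later build than mm9, so only the order of genes is used.

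**Figure D4:**
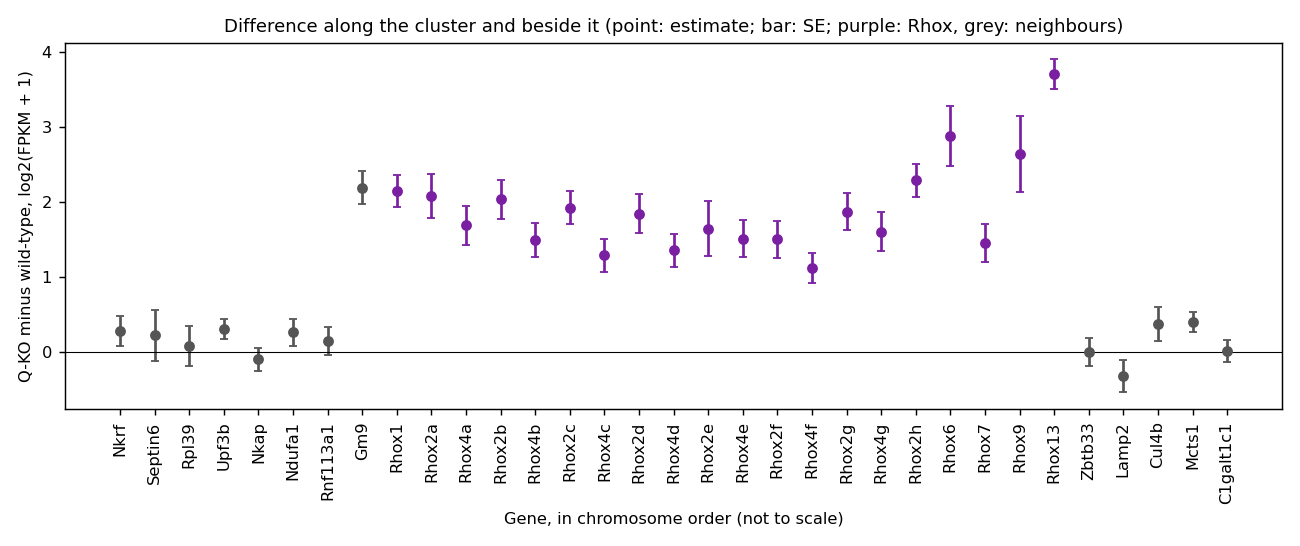
Difference between Q-KO and wild-type on the log2(FPKM + 1) scale (vertical axis) for the 20 Rhox genes in the fit (purple) and the 13 tested protein-coding neighbours (grey), in chromosome order and not to scale. Points are limma estimates and bars are SE. Gm9 at 2.19 lies at the level of Rhox1, whereas the neighbours beyond it and beyond Rhox13 lie between -0.32 and 0.41.

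Silencing of germline genes is known to involve DNA methylation and repressors that bind near their starts, so the sequences just before the annotated starts were compared. Promoter sequences were taken from RefSeq (GRCm38.p6) and cover the 250 bases before the start. Of the 30 members, 24 had an entry, without Rhox2f, Rhox4d, Rhox6, Rhox7, Rhox8 and Rhox9. Those of Rhox1, Rhox2a, Rhox4e and Rhox13 are shown because they hold 0 to 7 CpG dinucleotides while all 4 genes were higher in each Q-KO library. Capitals mark the CpG dinucleotides.

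Rhox1 promoter, chrX:37222259-37222508, minus strand: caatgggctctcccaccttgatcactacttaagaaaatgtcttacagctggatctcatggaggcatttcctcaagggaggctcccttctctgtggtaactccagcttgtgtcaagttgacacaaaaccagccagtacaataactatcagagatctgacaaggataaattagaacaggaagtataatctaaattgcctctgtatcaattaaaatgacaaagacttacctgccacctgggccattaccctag
Rhox2a promoter, chrX:37244742-37244991, plus strand: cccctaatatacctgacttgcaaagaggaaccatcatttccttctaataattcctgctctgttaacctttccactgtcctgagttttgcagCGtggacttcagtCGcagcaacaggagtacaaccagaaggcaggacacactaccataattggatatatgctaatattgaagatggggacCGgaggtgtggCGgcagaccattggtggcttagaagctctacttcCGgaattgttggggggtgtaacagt
Rhox4e promoter, chrX:37557162-37557411, plus strand: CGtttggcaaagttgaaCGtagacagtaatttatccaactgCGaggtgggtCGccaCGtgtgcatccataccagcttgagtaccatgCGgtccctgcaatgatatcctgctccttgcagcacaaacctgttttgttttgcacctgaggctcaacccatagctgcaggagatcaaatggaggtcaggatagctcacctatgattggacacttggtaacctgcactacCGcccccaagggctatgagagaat
Rhox13 promoter, chrX:38120590-38120839, plus strand: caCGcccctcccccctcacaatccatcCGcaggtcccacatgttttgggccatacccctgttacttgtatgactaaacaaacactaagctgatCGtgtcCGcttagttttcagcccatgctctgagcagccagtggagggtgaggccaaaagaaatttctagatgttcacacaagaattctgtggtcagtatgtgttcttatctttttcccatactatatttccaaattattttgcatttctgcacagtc

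The 24 promoters held 0 to 8 CpG dinucleotides with a median of 4.5, against a median of 6 over 27025 RefSeq promoters of the same length. Rhox1 held 0 and Rhox10 held 8, and each had separate groups. The Rhox3 promoters, whose genes were near 0, held 1 to 3, the Rhox2 promoters 3 to 6 and the Rhox4 promoters 4 to 7. The member with the highest wild-type level had no CpG in this window. With 24 promoters, many of them near copies, no relation between CpG number and level was tested.

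Both strands were searched for CACGTG, the E-box bound by MAX and its partners, and for GCGGGAA, an E2F-type site. These motifs do not overlap each other. CACGTG occurred in 4 of the 24 promoters, all of them Rhox4 copies (Rhox4b, Rhox4e, Rhox4f and Rhox4g, 4 of the 6 Rhox4 promoters with an entry), and in 6.05% of all promoters. GCGGGAA occurred in 0 of the 24 and in 3.84% of all promoters. The Rhox4 promoters are close copies with annotated starts at different places, so they are not 4 separate occurrences, and the E-box was looked for with the sequences in view. A match is a run of letters, and no binding was measured.

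Transcripts of the silencing machinery itself were read from a list of DNA methyltransferases, TET enzymes, histone methyltransferases, linker histones and members of the E2F6, MGA and MAX complex. Of 23 genes, 20 were tested and 0 passed in the limma fit. An unadjusted p under 0.05 was reached by 3 of the 20, against 2493 of all 11573 genes tested. The median log2 difference of the 20 was 0.00, against 0.07 over all genes tested. Trim28, the corepressor with the highest level on the list, was at 263 to 415 FPKM in wild-type and 328 to 377 FPKM in Q-KO libraries (log2 difference 0.10, SE 0.19). Dnmt1, the maintenance methyltransferase, was at 50.3 to 63.8 and 43.2 to 62.4 FPKM and was named after its values were seen. Max, likewise, was at 28.8 to 32.7 FPKM in wild-type and 42.8 to 43.5 FPKM in Q-KO libraries. Its adjusted p was 0.0706 in the same limma fit. Of the 20 tested, 2 had all Q-KO values above wild-type (Max and Hist1h1c) and 1 below (Mga). Over all 11573 genes tested, 2108 lay above and 1093 below. Mga was at 20.1 to 21.8 FPKM in wild-type and 10.7 to 19.0 FPKM in Q-KO libraries. Dnmt3l differed most, by 0.86 (SE 0.37), with overlapping groups. These genes too were named after their values were seen. A p that misses the threshold does not show that the level was the same.

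Other genes of the kinds that the Rhox family belongs to were compared with the same fit. Of 40 other genes of germ cells and placenta listed as X-linked, 38 were in the table and 21 were tested. Among the 38 was Mageb3, which the annotation places on chromosome 2 and which was too low for the fit. Of the 21, 3 rose (14.3%, where the share of all genes tested was 3.04%), while 0 fell. Their median log2 difference was 0.76. Tex13, a gene of male germ cells, was at 0.664, 1.93 and 0.120 FPKM in wild-type and 6.40, 7.01 and 6.51 FPKM in Q-KO libraries (log2 difference 2.12, SE 0.32). Mageb4, of the melanoma antigen family, rose by 1.62 (SE 0.28) and Taf7l, a germ cell form of a TFIID subunit, by 1.52 (SE 0.23), both with separate groups. The wild-type means of all 3 were under 1 FPKM (0.904 for Tex13, 0.471 for Mageb4 and 0.436 for Taf7l), so they entered the fit through their Q-KO values and had to differ to be tested, and the share of 14.3% is not read against the background. With no filter, 2 of 37 genes passed, and Tex13 (adjusted p = 0.0514, limma) and Mageb4 (0.0590) were not among them. All 3 calls were lost when wild-type replicate 1, Q-KO replicate 2 or Q-KO replicate 3 was left out. Of 415 X-linked genes tested outside the Rhox family, which include those on this list, 21 rose and 3 fell, with a median log2 difference of 0.09.

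Of 39 other homeobox genes of the paired-like kind, 36 were in the table, 8 were tested and 0 rose. Obox6, an oocyte homeobox gene on another chromosome, was the 1 that fell, by 3.17 on the log2(FPKM + 1) scale (SE 0.57). Its wild-type values of 50.5, 66.5 and 10.9 FPKM lay above its Q-KO values of 3.30, 2.14 and 3.24 FPKM, and the call was lost when any library but wild-type replicate 3 was left out, with no filter and in the robust fit. Esx1, a placental homeobox gene also on the X-linked list, rose in its place in the robust fit and without wild-type replicate 2. The list's median log2 difference was 0.06. Of 5 genes reported downstream of Rhox5 in testis, only Adipor2, an adiponectin receptor, was tested, and it did not pass (log2 difference 0.03, SE 0.15).

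Markers of cell types in which Rhox genes are known were read beside these results. Of 16 trophoblast markers 7 were tested and 2 rose (28.6%, where the share of all genes tested was 3.04%). These were Eomes, by 1.62 (SE 0.15), and Tfap2c, by 0.94 (SE 0.16), both transcription factors of trophoblast. The tested markers that did not pass went both ways. Krt8 (-1.17, SE 0.79) and Krt18 (-0.52, SE 0.37) were lower in Q-KO. Krt7 (0.23, SE 0.53), Ascl2 (0.18, SE 0.30) and Esx1 (1.29, SE 0.31) were higher. The markers too low for the fit were under 1 FPKM in each library. Of these, Cdx2, Gata3, Gcm1 and Plac1 had all Q-KO values above all wild-type values. Cdx2 was at 0.0178 to 0.0489 FPKM in wild-type and 0.393 to 0.805 FPKM in Q-KO libraries. Hand1, Elf5 and Prl2c2 did not separate the groups, and Tpbpa and Prl3d1 were listed at 0 throughout. The markers that did not pass or were not tested were named after their values were seen. The call of Tfap2c was lost with the replicate number as a block (adjusted p = 0.0503, limma) and when wild-type replicate 1, Q-KO replicate 2 or Q-KO replicate 3 was left out (0.0631, 0.130 and 0.0783). Of 10 germ cell markers 10 were tested and 1 rose, the RNA-binding factor Nanos3, from 0.734, 1.83 and 3.05 FPKM to 6.06, 5.74 and 7.85 FPKM. The call of Nanos3 was lost in 9 of 14 settings, among them the term for Y-linked transcripts (log2 difference 0.89, adjusted p = 0.133, limma) and all single-library omissions but that of wild-type replicate 3. At an unadjusted p under 0.05 there were 6 of the 10, counted in either direction, against 2493 of all 11573 genes tested. Ddx4, Mael and Sycp3, genes of germ cell RNA granules and of meiotic chromosomes, had all Q-KO values above all wild-type values without passing. Sycp3 was at 2.99, 13.7 and 6.83 FPKM in wild-type and 17.9, 19.3 and 37.1 FPKM in Q-KO libraries (log2 difference 1.66, SE 0.46), with its highest values in wild-type replicate 2 and Q-KO replicate 3, as for most Rhox genes. Prdm1 had all Q-KO values below wild-type. The summed germ cell markers, in which Dazl, Dppa3 and Kit weigh most, ran from 158 to 395 FPKM in wild-type and from 244 to 384 FPKM in Q-KO libraries, with overlapping groups. Apart from Nanos3 these germ cell genes were named after their values were seen. The 7 primitive endoderm markers were all below the limit of the fit and summed to 1.26 to 2.20 FPKM and 1.86 to 2.78 FPKM. The 8 fibroblast markers summed to 2.11 to 3.18 FPKM and 1.86 to 7.71 FPKM, highest in Q-KO replicate 1, where 21 of 27 Rhox members were at their lowest within the Q-KO group. The part of these cell types in the Rhox levels was not tested.

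Single libraries weighed on the count of members past the threshold, from which nothing is read. Leaving out wild-type replicate 1, Q-KO replicate 2 or Q-KO replicate 3 left 5, 3 and 6 of the 20 members past the threshold, where the count over all genes went from 470 to 94, 28 and 85.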

How the data were processed

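Gene-level FPKM values for 6 libraries were deposited by the authors in 1 table, with 24043 gene rows after 1 stray row was dropped. Cufflinks, STAR 2.5, bcl2fastq 2.16 and CASAVA were used with the build mm9, per the submitters' processing notes, which give them no role or order. The sources used here give no annotation, strand setting or read depth, so no counting interval or floor was computed. Groups and replicate numbers came from the labels, which do not say that replicates were separate cultures. The p-values then measure the spread between these samples alone, which may be technical in part. In wild-type, that spread also holds the difference in Y-linked transcripts between replicate 3 and replicates 1 and 2.

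Members and gene lists were chosen with earlier results of these data known. The 11573 genes whose mean reached 1 FPKM were fitted on the log2(FPKM + 1) scale with limma 3.58.1 in R 4.3.3, with eBayes and its intensity trend. Tests were two-sided, adjusted by Benjamini-Hochberg over all these genes, with a threshold of 0.05. The script was tested on simulated data. Ratios and sums were computed on FPKM. Every Rhox gene was to be named, and of each other list up to 4 members past the threshold with the largest difference, or else the most abundant member. Genes outside this rule are said to be so where named. Shared windows and coding stretches came from GENCODE M21 transcripts (for each gene the longest protein-coding transcript that encodes the motif), and gene order and promoters from RefSeq. All 30 members matched RefSeq by symbol or synonym. Alternatives were no filter, a filter at a mean of 5 FPKM, a pseudocount of 0.1, median-of-ratios and quantile scaling, no intensity trend, a robust fit, a replicate block and leaving out each library. A term for Y-linked transcripts, sums against wild-type replicate 3 alone and protein-coding neighbours were added after seeing the data.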

Additional observations from a re-analysis of the deposited data

How the results depend on the processing

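The family's log2 ratio of summed FPKM, 2.96, stayed between 2.69 and 3.26 over 11 alternatives. These changes were within 0.74, the SD of single libraries' log2 sums with the variances of both groups added. That SD is a spread of libraries and not an error of the ratio of means. Of the 20 Rhox genes past the threshold, 18 to 20 remained under the other pseudocount, both scalings, no trend, the robust fit, the replicate block and the Y-linked term. With no filter 16 remained, and 2 members outside the 20 passed. A mean of at least 5 FPKM left 5 members tested, all 5 past it, and leaving out 1 library gave 3 to 20. Over all genes the count of 470 became 266 with a mean of at least 5 FPKM, 894 with the Y-linked term and 28 to 566 with 1 library left out. The replicate numbers did not pair the libraries (correlations of same-numbered deviations -0.028, 0.012 and 0.022). With the number as a replicate block, 333 genes and 19 members passed, without Rhox2e. Calls toward Q-KO made up 74.9% of calls, 61.8% with median-of-ratios scaling and 54.0% with quantile normalization, and the median over all genes went from 0.07 to -0.01 and -0.03.

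Of the neighbours, 1 passed except with a mean of at least 5 FPKM (0 of 6, Gm9 not being tested) and with the Y-linked term (2). The silencing list gave 0 except with no filter (1). The 3 X-linked germ cell and placenta genes became 0 with a mean of at least 5 FPKM, 5 with the robust fit, 15 with the Y-linked term and 0 to 5 with 1 library left out. The 1 paired-like gene became 3 with the Y-linked term (1 higher, 2 lower) and 0 to 1 with 1 library left out. With no filter, in the robust fit and without wild-type replicate 2 the 1 call was another gene, higher in Q-KO, and Obox6 was lost (adjusted p 0.0786, 0.0827 and 0.0524, limma). Where a filter changed a count, fewer or more genes were tested, and the other causes were not tested. Depth is unknown, so how far it limits values near 0 cannot be given.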
